A study of Mus musculus with 12 samples.

Results

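The 8 genes described here encode the core of the neuronal vesicle fusion machinery and proteins that regulate it. They are Snap25, Stx1a, Vamp2, Vamp1, Stxbp5, Stxbp5l, Cplx1 and Cplx2, chosen by name for their function and found by Ensembl gene identifier. Earlier results of these data were known when they were chosen. All 8 were listed in all 12 libraries, out of 24590 genes listed in any library, and all 8 passed the filter of a mean of at least 1 FPKM, a measure of fragments per transcript length and library size. Hippocampal RNA came from 12 mice, 3 in each of 4 groups: wild-type and Shank2 knockout mice of a line lacking exons 6 and 7 (exon 6-7 line), and wild-type and Shank2 knockout mice of a line lacking exon 7 (exon 7 line). Shank2 encodes a scaffold protein of the postsynaptic density of excitatory synapses. All mice shared a mixed C57BL/6J and C57BLl/6N background, as the labels spell it. The knockouts and their wild-type littermates were male and, as stated for the behavioural experiments, 8 to 15 weeks old. The labels name no Cre driver or cell type for the deletions and no number of founders for a line. The study compared expression between wild-type and knockout mice, and the mouse numbers in the sample names show that replicates are separate animals.

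SNARE proteins drive the fusion of synaptic vesicles with the presynaptic membrane. Syntaxin-1 and SNAP-25 on the plasma membrane form a helical bundle with synaptobrevin (VAMP) on the vesicle, and the zippering of that bundle pulls the membranes together. Tomosyns carry a SNARE motif of their own that occupies syntaxin and SNAP-25 in place of synaptobrevin and so restrain fusion, while complexins bind the assembled bundle and hold it ready for the calcium sensor synaptotagmin. In the hippocampus these genes are expressed in the principal cells and interneurons that form its synapses.

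Paralogy bears on how FPKM values are read, since reads from paralogues with near-identical coding sequence could be assigned to the wrong gene. The closest 60-base coding stretches of the synaptobrevins, complexins and tomosyns, read from GENCODE M21 transcripts, are shown for that reason, with the bases that differ within a pair in capitals. In the synaptobrevin pair the stretch lies in the SNARE motif, and 4 of its 60 bases differed (coding bases 127 to 186 of Vamp1 and 121 to 180 of Vamp2).
Vamp1: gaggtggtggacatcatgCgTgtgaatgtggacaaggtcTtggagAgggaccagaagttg
Vamp2: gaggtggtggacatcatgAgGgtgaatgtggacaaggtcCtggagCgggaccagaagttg
The complexins were closest over the first 60 coding bases, with 5 differing bases and the longest identical run of any pair, 32 bases.
Cplx1: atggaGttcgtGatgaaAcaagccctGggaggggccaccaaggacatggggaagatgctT
Cplx2: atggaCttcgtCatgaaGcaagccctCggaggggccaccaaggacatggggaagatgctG
The tomosyns were closest over the last 60 bases before the stop codon (coding bases 3397 to 3456 of Stxbp5 and 3496 to 3555 of Stxbp5l), with 9 differing bases. Over their whole coding sequences, stop codon included, the longest identical run was 22 bases.
Stxbp5: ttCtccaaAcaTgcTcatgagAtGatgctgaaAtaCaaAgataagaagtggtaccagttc
Stxbp5l: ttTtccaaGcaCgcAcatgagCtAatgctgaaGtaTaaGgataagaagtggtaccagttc
No pair shared an identical coding run as long as 50 bases. Of all 50-base windows along the longest transcript, 0% of those of Snap25, Vamp2, Stx1a, Stxbp5, Stxbp5l and Cplx1 occurred in a transcript of another gene, against 0.12% for Vamp1 and 4.26% for Cplx2. The longest Vamp1 transcript is not protein coding, so its share was not measured on a coding transcript. The shared Cplx2 windows matched Gm47409, Rab3c and Emp2, none of them a complexin.

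On mm10 (GRCm38) the genes lie on 7 chromosomes. Snap25 is at chr2:136713453-136782428 on the plus strand, Stx1a at chr5:135023482-135051100 (plus), Vamp2 at chr11:69088490-69092384 (plus) and Vamp1 at chr6:125215551-125245964 (plus). Stxbp5 is at chr10:9755547-9901079 (minus), Stxbp5l at chr16:37114942-37384962 (minus), Cplx1 at chr5:108518554-108550024 (minus) and Cplx2 at chr13:54371349-54383917 (plus). Vamp1 overlaps the protein-coding genes Tapbpl and Cd27 and the microRNA gene Mir8113, all on the other strand, and how strand was used in counting is not stated, so reads of these genes and of Vamp1 may not be told apart. Snap25 overlaps a processed pseudogene, Stxbp5l overlaps a pair of them, and Stxbp5 contains a small nucleolar RNA gene. Vamp2, Stx1a, Cplx1 and Cplx2 overlap no other annotated gene.

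Libraries differed in ways that the groups do not explain. In 4 libraries (WT778, KO776, WT628 and KO969, called set A), 1 in each group, the gene ENSMUSG00000095746 was not listed, while the other 8 libraries (set B) held 217.7 to 434.8 FPKM of it. Some of the values below are also given without set A. Depth is unknown, since FPKM values keep no read total, so no counting error can be given. WT865 had a summed level of 125 scaled FPKM over 12 choroid plexus and ependymal markers, against 4274 in WT778 and 9163 in WT809. All 15 hippocampal principal cell markers were listed in every library, and the 12 neuronal markers summed to between 1941 and 2205 scaled FPKM. Shank2 fell from 14.4 ± 0.577 to 6.47 ± 0.483 scaled FPKM (SD, n = 3 each) in the exon 6-7 knockouts (log2 fold change -1.04, adjusted p = 0.0111 in limma). That call was lost without WT778 (adjusted p = 0.0907), WT865 (0.11) or KO776 (0.102), while the fold change stayed at -1.04, -1.02 and -1.02. Shank2 in the exon 7 line was at 40.9 ± 4.24 in wild types and 40.5 ± 6.3 in knockouts, so the gene's total level does not check the labels there.

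FPKM values were divided by 1 factor per library (scaled FPKM) and compare genes per length. On that scale the 8 genes spanned a wide range of levels. Snap25, the plasma membrane SNARE that supplies a pair of the bundle's helices, averaged 955.7 scaled FPKM over the 12 mice, and 27 of the 14220 genes tested had a higher mean level. Vamp2, the main synaptobrevin of forebrain vesicles, averaged 605 (58 genes higher). The complexins followed at 281 for Cplx2 and 278 for Cplx1, with 192 and 194 genes above them. Stx1a averaged 67, Vamp1 46.0, Stxbp5 24.0 and Stxbp5l 12.8, the last with 6655 genes above it. Snap25 and Vamp2 stood first and second in all 4 groups, and Stxbp5 and Stxbp5l stood seventh and last. The ranges of neighbouring genes in that order overlapped for Cplx1 and Cplx2 in 3 groups and for Stx1a and Vamp1 in both exon 7 groups. Among exon 7 knockouts Cplx2 (278 to 331) lay above Cplx1 (239.95 to 253).

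**Figure D1:**
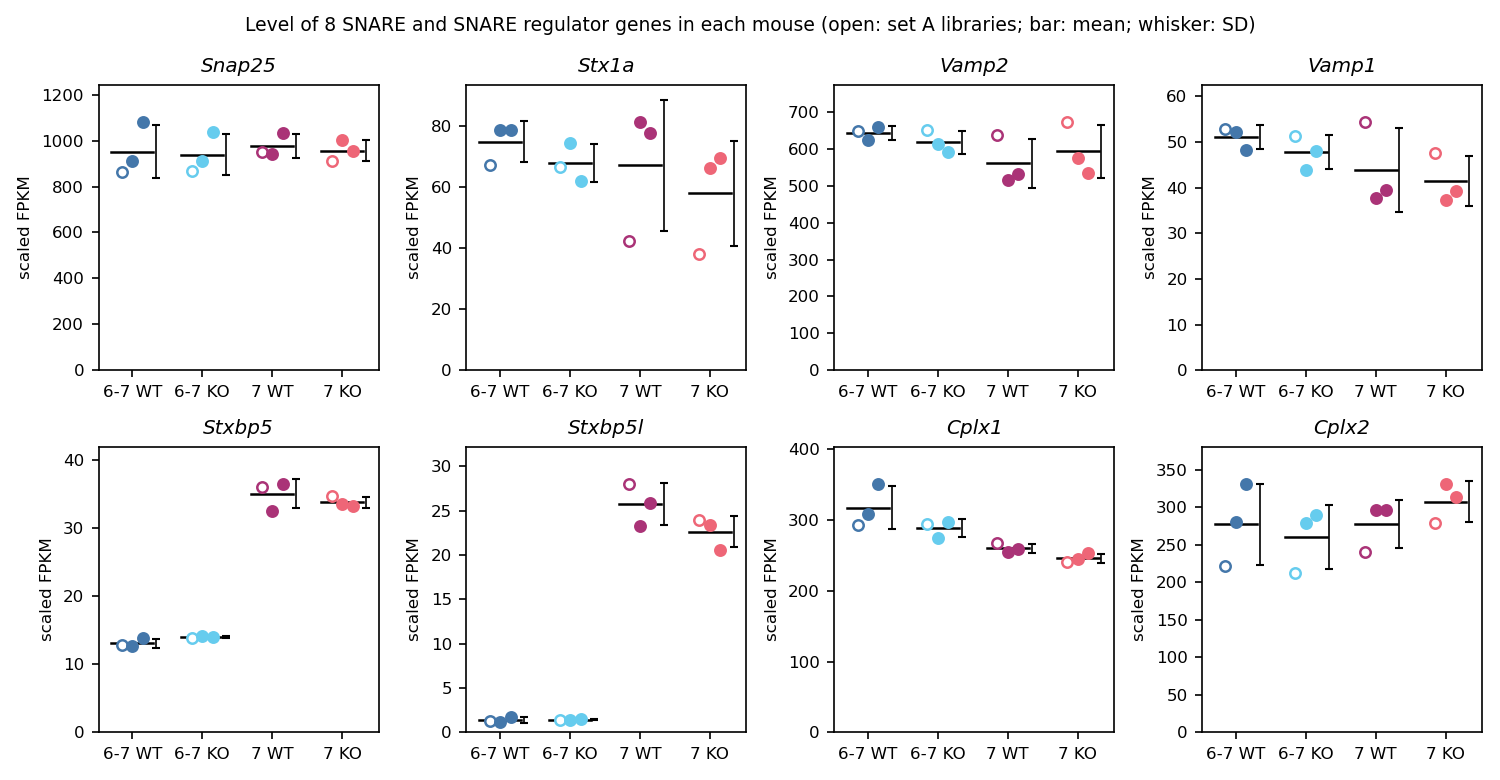
Level of each of the 8 genes in each mouse, in scaled FPKM on an axis from 0, by group (6-7 or 7 for the line, WT or KO for genotype). Points are mice, open points are set A libraries, bars are group means and whiskers are SDs. Stxbp5 and Stxbp5l separate by line, with Stxbp5l at 1.18 to 1.78 in exon 6-7 mice and at 20.6 to 28.0 in exon 7 mice, and the open points of Stx1a lie lowest in the exon 7 line.

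No member passed the test between knockout and wild type in either line. In the exon 6-7 line 0 of 8 were called by limma at an adjusted p under 0.05 and 0 of 8 had an unadjusted p under 0.05. Over all genes 0.0141% were called there (0.00703% higher and 0.00703% lower) and 4.1% had an unadjusted p under 0.05. The counts for the exon 7 line were also 0 of 8 and 0 of 8, against 0% of all genes called and 3.46% with an unadjusted p under 0.05. Estimated log2 fold changes lay between -0.14 and 0.09 in the exon 6-7 line (median -0.07, against 0.00 over all genes) and between -0.20 and 0.15 in the exon 7 line (median -0.06, against -0.01). The 95% intervals of single genes reached from -0.69 to 0.40 in the first and from -0.75 to 0.49 in the second, so changes within those bounds were not excluded. Knockout values of all genes also ran with transcript length (Spearman 0.351 for exon 6-7, -0.183 for exon 7) and GC content (-0.269 and 0.181). The medians above still hold these trends. With both trends removed, member values ran from -0.16 (Vamp1) to -0.01 (Stxbp5) for exon 6-7. For exon 7 they ran from -0.24 (Stx1a) to 0.15 (Cplx2). With 3 mice against 3, an exact two-sided permutation test of 1 gene in 1 line cannot give a p below 0.1. Since the tissue is bulk hippocampus, fewer cells of a type and less RNA per cell cannot be told apart.

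**Figure D2:**
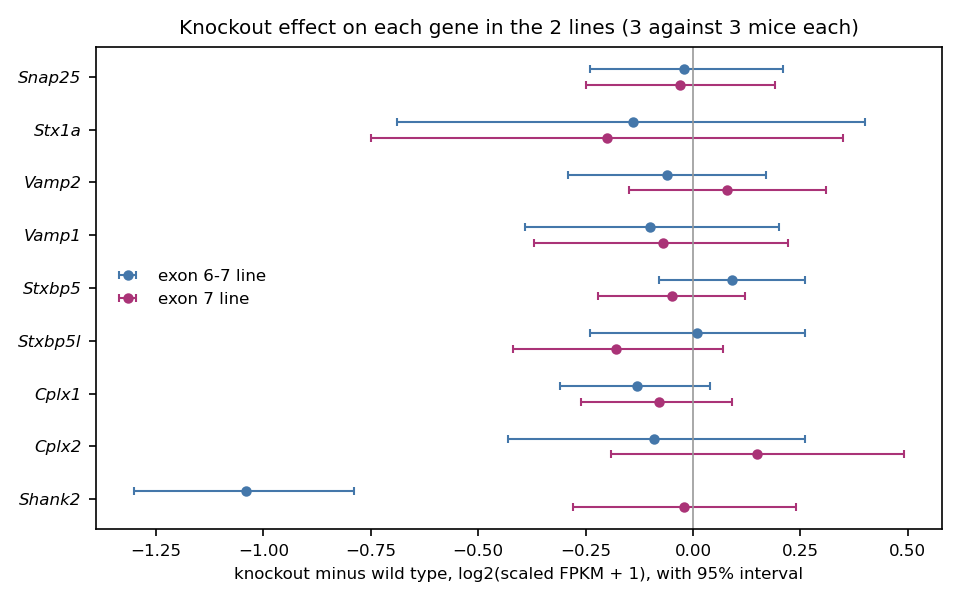
Knockout minus wild type for each gene in the exon 6-7 line (blue) and the exon 7 line (purple), as the difference of log2(scaled FPKM + 1) with its 95% interval from limma, 3 against 3 mice per line. All 16 intervals of the 8 SNARE genes cross 0, and Stx1a has the widest, while the interval of Shank2 in the exon 6-7 line (-1.30 to -0.79) does not.

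The plasma membrane SNAREs Snap25 and Stx1a differed in how much they varied between mice. In the exon 6-7 line the wild types WT778, WT809 and WT865 held 862, 909.6 and 1082 scaled FPKM of Snap25, and the knockouts KO776, KO777 and KO864 held 868, 910.1 and 1039. The exon 7 mice WT628, WT993 and WT999 held 951, 944 and 1035, and KO969, KO990 and KO994 held 911, 1001 and 957, an order of mice kept for the other genes. All groups overlapped, and the group means differed by less than the spread between mice, at log2 fold changes of -0.02 (95% interval -0.24 to 0.21) and -0.03 (-0.25 to 0.19). In the exon 6-7 line each genotype went from its set A mouse at the bottom to WT865 or KO864 at the top.

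Stx1a, the syntaxin of the fusion bundle, was more variable. Its exon 6-7 wild types held 67.2, 78.8 and 78.9 scaled FPKM and the knockouts 66.8, 74.5 and 62.2. The exon 7 wild types held 42.4, 81.5 and 77.7 and the knockouts 38.0, 66.2 and 69.7. WT628 and KO969, the exon 7 set A libraries, were far below the other 4 mice. The knockout difference (log2) was -0.14 (-0.69 to 0.40) in exon 6-7 mice and -0.20 (-0.75 to 0.35) in exon 7 mice, neither called (adjusted p = 1.0 in limma for both). Within set B, 2 knockouts against 2 wild types, the differences were -0.21 and -0.23, and between the lone set A mice of each genotype -0.01 and -0.15. All 6 values overlapped between genotypes in each line. In set B alone both knockouts lay under both wild types in the exon 6-7 line (74.5 and 62.2 against 78.8 and 78.9) and in the exon 7 line (66.2 and 69.7 against 81.5 and 77.7), an order that 19.4% and 20.8% of all genes also had. Of the 8 members 5 did not overlap in set B of the exon 6-7 line, against 35.9% of all genes, and 4 of 8 did not in set B of the exon 7 line, against 38.3%. Leaving out WT628 moved the exon 7 value to -0.50 (adjusted p = 0.943), and leaving out KO969 moved it to 0.07 (adjusted p = 0.932). Either step left set A in only 1 genotype of that line, so these values also hold the gap between the sets. With both set A mice out the value was -0.23, as given above.

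Vamp2, the main vesicle SNARE, held 648, 624 and 661 scaled FPKM in the exon 6-7 wild types and 652, 613 and 591 in the knockouts. The exon 7 wild types held 638, 515 and 533 and the knockouts 674, 576 and 534. Genotypes overlapped in both lines, and in the exon 7 line the set A mouse was the highest of each group. The log2 fold changes of -0.06 (-0.29 to 0.17) and 0.08 (-0.15 to 0.31) were within the spread between mice. Vamp1, the synaptobrevin more typical of hindbrain, spinal and some fast-firing neurons, held 52.8, 52.3 and 48.1 in the exon 6-7 wild types and 51.3, 43.9 and 48.1 in the knockouts. The exon 7 values were 54.4, 37.7 and 39.5 in wild types and 47.6, 37.3 and 39.2 in knockouts. Again the exon 7 set A mice were highest, and the knockout differences of -0.10 (-0.39 to 0.20) and -0.07 (-0.37 to 0.22) were not called.

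Of the tomosyns, Stxbp5 (tomosyn-1) held 12.8, 12.7 and 13.8 scaled FPKM in the exon 6-7 wild types and 13.9, 14.1 and 14.0 in the knockouts. All 3 knockouts thus lay above all 3 wild types, the 1 member of 8 whose groups did not overlap in that line, where 11.3% of all genes did not overlap (5.01% higher and 6.32% lower). The gap between KO776 (13.877) and WT865 (13.84) was small, and the log2 fold change of 0.09 (-0.08 to 0.26) was not called (adjusted p = 1.0 in limma). With the trend of each library against transcript length and GC content removed, the value was -0.01. Its exon 7 values overlapped, at 36.0, 32.5 and 36.4 in wild types and 34.7, 33.5 and 33.2 in knockouts (-0.05, -0.22 to 0.12).

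Stxbp5l (tomosyn-2) held 1.28, 1.18 and 1.78 scaled FPKM in the exon 6-7 wild types and 1.45, 1.35 and 1.47 in the knockouts. At this low level the added pseudocount of 1 compresses fold changes, and the knockout difference was 0.01 (-0.24 to 0.26). Among exon 7 mice, where the gene was well above that level, wild types held 28.0, 23.3 and 25.9 and knockouts 23.9, 23.4 and 20.6. KO990 and KO969 were within the range of the wild types, and KO994 lay below it. The exon 7 difference of -0.18 (-0.42 to 0.07) was not called (adjusted p = 1.0 in limma).

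The complexins differed from each other in their pattern. Cplx1 held 293, 309 and 351 scaled FPKM in the exon 6-7 wild types and 294, 274 and 297 in the knockouts, which overlapped. Exon 7 wild types held 267, 255 and 259 and knockouts 239.95, 245 and 253, so that all 3 knockouts lay below all 3 wild types. Cplx1 was the 1 member of 8 whose groups did not overlap there, where 7.04% of all genes did not (3.27% higher and 3.77% lower). Its log2 fold changes were -0.13 (-0.31 to 0.04) and -0.08 (-0.26 to 0.09), neither called. Cplx2 held 222, 279.7 and 330.1 in the exon 6-7 wild types and 212, 279 and 289.75 in the knockouts. Exon 7 wild types held 241, 296 and 296 of Cplx2 and knockouts 278, 331 and 313. The set A mouse was the lowest of every group, genotypes overlapped in both lines, and the values of -0.09 (-0.43 to 0.26) and 0.15 (-0.19 to 0.49) were not called.

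Both lines together gave no call either. For the mean of the 2 knockout effects 0 of 8 members were called (0.0141% of all genes) and 0 of 8 had an unadjusted p under 0.05 (3.62% of all genes), with values from -0.17 for Stx1a to 0.03 for Cplx2. Cplx1 had the smallest p, at a mean effect of -0.11 (-0.23 to 0.02, adjusted p = 1.0 in limma). Its exact permutation p over 400 relabellings within lines was 0.02, unadjusted and 1 of 40 such tests made for the members. Without WT865, the highest mouse for Cplx1, the mean effect was -0.07, and without set A it was -0.13. The difference between the 2 knockout effects was called for 0 of 8 members (0.00703% of all genes), and 0 of 8 had an unadjusted p under 0.05 (3.87%). It lay between -0.24 for Cplx2 and 0.19 for Stxbp5l. Among all genes this difference ran with transcript length (Spearman 0.357) and GC content (-0.299). For Cplx2 the interval of that difference was -0.72 to 0.25, and for Stx1a it was -0.72 to 0.83. Knockout effects that differ between the lines within those bounds were thus not excluded for these genes.

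WT865 had the highest level of its group for 7 of the 8 genes, all but Vamp1, for which it was the lowest. No other mouse was highest for more than 4. Without WT865 the exon 6-7 knockout differences of Snap25 and Cplx2 turned from below to above 0 (0.08 and 0.05), Cplx1 moved to -0.06 and Stxbp5l to 0.12, with no call among the 8. Of 11 lists of cell type markers, 4 had lower sums in all 3 exon 6-7 knockouts than in all 3 wild types, and 7 overlapped. Of single genes, 6.32% lay lower in this way, a share that was not computed for sums. The 12 neuronal markers summed to 2138 to 2191 scaled FPKM in wild types and 1941 to 2088 in knockouts (median log2 fold change -0.09), and the 15 hippocampal principal cell markers to 1169 to 1182 and 1127 to 1143 (-0.10). Slc17a7 and Pcp4 made up most of the principal cell sum. The 15 interneuron markers summed to 2076.5 to 2115 and 1886 to 1951, with a median of -0.04, and Cck (861 to 753) and Sst (697 to 655) made up most of the sum. The 12 myelin markers summed to 5738 to 7112 and 5012 to 5142 (-0.35), with Mbp the largest part of the sum. Choroid plexus and meningeal markers had medians of 1.42 and 0.55 with overlapping sums, WT865 being far below the rest for the choroid list. In the exon 7 line the cortex and myelin lists lay lower in knockouts and the meningeal list higher, and 8 of 11 overlapped. Of single genes, 3.77% lay lower and 3.27% higher there without overlap. No marker was called in either line, and their part in the members' values was not tested.

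Genes that work with the 8 were described from 5 lists of 75 genes, of which 74 had an identifier and 72 were tested. In each of the 4 knockout comparisons 0 of 72 were called. Of the 72, 1 had an unadjusted p under 0.05 in the exon 6-7 line, 1 in the exon 7 line, 2 for the difference and 1 for the mean. The medians of the 72 were -0.02 in each line, against 0.00 and -0.01 over all genes. The gene in the exon 6-7 line was Syt9, a calcium sensor of the synaptotagmin family, at 2.70 scaled FPKM in wild types and 3.59 in knockouts (log2 0.31, adjusted p = 1.0 in limma). The one in the exon 7 line was Syt2, the fast calcium sensor of hindbrain and inhibitory synapses, at 5.21 and 3.92 (-0.32, adjusted p = 1.0). Syt2 also had the smallest p for the mean effect, -0.30 (adjusted p = 1.0), with means of 4.10 and 3.20 in the exon 6-7 line. Use1, a SNARE of the endoplasmic reticulum, had a knockout difference of -0.20 in the exon 6-7 line. It was 1 of the 2 genes with an unadjusted p under 0.05 for the difference between the knockout effects, at -0.37, the other being the synaptotagmin gene Syt6 at 0.38 (adjusted p = 1.0 for both).

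Among the other list genes none stood past the threshold. In the list of other plasma membrane and vesicle SNAREs the smallest p in the exon 6-7 line belonged to Vamp8 (0.28) and Snap23 (0.14). In the exon 7 line it belonged to Stx2 (0.20) and Snap29 (-0.09). Of the Golgi, endosome and endoplasmic reticulum SNAREs, Vti1a was at 0.12 in the exon 6-7 line, and Stx8 (-0.21) and Gosr1 (-0.30) led in the exon 7 line. Among syntaxin binders Stxbp4 was at 0.18 and Scfd2 at -0.20 in the exon 6-7 line, and Cplx3, a complexin of ribbon synapses, at -0.36 and Prrt2 at 0.16 in the exon 7 line. Among disassembly factors and chaperones Sncb (-0.20) and Sgta (-0.14) led in the exon 6-7 line, and Hspa8 (-0.26) in the exon 7 line. Syt6 (0.21) and Doc2a (0.30) were the other genes with the smallest p in the list of synaptotagmins, Doc2a, Doc2b and Rph3a, in the exon 6-7 and exon 7 line. All of these had an adjusted p of 1.0 in limma and none of the 5 lists held a called gene.

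Some of the 8 genes parted by library set. In the exon 6-7 line both set A mice lay below all 4 set B mice for 2 of 8 members (Snap25 and Cplx2) and the other 6 overlapped, against 30.5% of all genes that parted either way. In the exon 7 line 2 of 8 lay below (Stx1a and Cplx2), 2 above (Vamp1 and Vamp2) and 4 overlapped, against 49.7% of all genes. The members' shares were thus near the background, and Stxbp5, Stxbp5l and Cplx1 overlapped by set in both lines. Stx1a had the widest gap, with set A minus set B at -0.89 on the log2 scale in exon 7 wild types and -0.82 in exon 7 knockouts. Averaged over genotypes it was -0.86, and 96 of the 14220 genes (0.675%) had a lower value. In the exon 6-7 line the Stx1a gaps were only -0.23 and -0.03, and the sets overlapped. In the exon 7 line Vamp1 stood higher in set A by 0.48 and 0.31 (wild types and knockouts) and Vamp2 by 0.28 in both genotypes. In exon 6-7 mice these gaps were 0.07 and 0.16 for Vamp1 and 0.01 and 0.12 for Vamp2, with overlap. Cplx2 stood lower in set A in both lines, by -0.45 and -0.42 in the exon 6-7 line and -0.29 and -0.21 in the exon 7 line. Snap25 stood lower in set A in the exon 6-7 line, by -0.20 and -0.16. Over all genes, 25.0% in the exon 7 line had both set A mice below all 4 set B mice and 24.7% above, and in the exon 6-7 line 13.7% and 16.8%. What the sets stand for is not given in the labels, and their cause was not tested.

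Deviations of the 12 libraries from their group means show which members varied together, with no p attached, since the 12 libraries share lines, sets and processing. Stx1a ran against both synaptobrevins (Pearson r -0.93 with Vamp1 and -0.89 with Vamp2), and the synaptobrevins ran together (0.84). The largest deviations behind these values were those of WT628 and KO969, the exon 7 set A mice. They were -0.60 and -0.55 for Stx1a, 0.32 and 0.21 for Vamp1, and 0.19 in both mice for Vamp2. The values thus hold the gap between the sets in that line, and none was computed without these mice. Snap25 ran with Cplx2 (0.82) and with Cplx1 (0.72), and the tomosyns ran together (0.83). Cplx1 and Cplx2 were more loosely related, at 0.43. The genes most like Stx1a over the 12 libraries were Rapgef1 (0.981), Gga1 (0.98) and Mpnd (0.98), and those most like Vamp2 were Dcp2 (0.988), Srpk2 (0.986) and Cds2 (0.984). Vamp1 was most like Arl2bp (0.979), Senp7 (0.975) and the mitochondrial gene mt-Nd1 (0.975). Snap25 was nearest to Bmpr2 (0.976) and Cplx2 to Anp32a (0.973). Stxbp5 and Stxbp5l were nearest to Efcab14 (0.948) and Vps13c (0.956), and Cplx1 to Kantr (0.928).

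**Figure D3:**
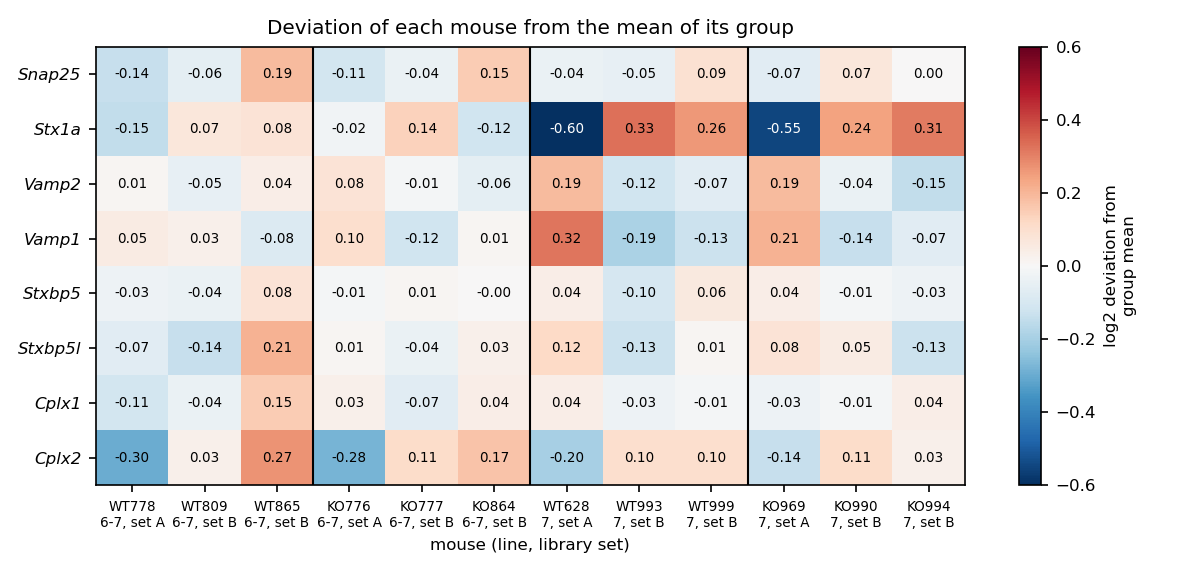
Deviation of each mouse from its group mean for the 8 genes, as log2(scaled FPKM + 1), blue for lower and red for higher, with the value in each cell and columns labelled by mouse, line and library set. WT628 and KO969 stand out for Stx1a (-0.60 and -0.55) and show the opposite sign for Vamp1 (0.32 and 0.21) and Vamp2 (0.19 in both).

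The wild types of the 2 lines differed far more than the genotypes did. Of all genes, 67.1% were called between them (33.9% higher and 33.2% lower in the exon 7 line), 69.5% had an unadjusted p under 0.05, and 70.2% did not overlap (35.6% higher and 34.6% lower). The line, its breeding and the preparation of its libraries cannot be told apart. Of the 8 members 3 were called, a smaller share than the background, and 3 did not overlap. The difference also ran with transcript length over all genes (Spearman 0.672) and with GC content (-0.41). Genes with a longest transcript under 1000 bases had a median difference of -0.94, and those of at least 8000 bases had one of 1.25.

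Stxbp5l had the largest line difference of the 8. It stood at 1.41 ± 0.318 scaled FPKM in the exon 6-7 wild types and 25.7 ± 2.36 in the exon 7 wild types (SD, n = 3 each), an 18.2-fold ratio of means. On the log2(scaled FPKM + 1) scale the difference was 3.47 (3.22 to 3.72, adjusted p = 7.95e-09 in limma), and 10 of 14220 genes had a higher one. The knockouts, which share no mouse with the wild types, gave 1.42 ± 0.0635 and 22.6 ± 1.79, a 15.9-fold ratio. Its longest transcript of 4394 bases falls in the class of 4000 to 6000 bases, where 95% of genes had a difference of 1.39 or less. With the length and GC trends of each library removed, Stxbp5l was still 2.99 higher (adjusted p = 4.91e-09), and without set A it was 3.37 higher.

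Stxbp5, with a longest transcript of 8825 bases, rose from 13.1 ± 0.644 to 35.0 ± 2.14 scaled FPKM between the wild types, a 2.67-fold ratio (log2 1.35, 1.19 to 1.52, adjusted p = 5.47e-08 in limma). The ratio in knockouts was 2.42. Transcripts of at least 8000 bases had a median difference of 1.25, with 88.9% of them called higher. With length and GC trends removed, the difference of Stxbp5 was 0.10 and no longer called (adjusted p = 0.335).

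Cplx1 was the third called gene, at 317 ± 30.0 scaled FPKM in the exon 6-7 wild types and 260.2 ± 6.25 in the exon 7 wild types (-0.28, -0.46 to -0.11, adjusted p = 0.0084 in limma). Its direction depended on the scaling. It was 0.35 higher with quantile normalization (adjusted p = 0.00416), 0.28 higher with length and GC trends removed (adjusted p = 0.0293) and -0.05 and not called after rescaling to TPM (adjusted p = 0.591). The median of all genes itself moved from -0.01 to 0.20 with TPM and to -0.14 with the FPKM as deposited, and calls that were higher went from 50.6% to 62.9% and 42.2% of all calls.

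The other 5 members were not called between the wild types. Snap25 differed by 0.04 and Cplx2 by 0.01, with adjusted p-values of 0.725 and 0.949 in limma. Stx1a differed by -0.21, Vamp2 by -0.20 and Vamp1 by -0.23, and for these 3 genes set A lay apart within the exon 7 line. Without set A, Vamp2 was -0.29 (adjusted p = 0.00393) and Vamp1 -0.37 (adjusted p = 0.00381) and both were called, while Stx1a was 0.01. Vamp2 turned to 0.32 with quantile normalization (adjusted p = 0.0286). Vamp1 was -0.98 with length and GC trends removed (adjusted p = 5.69e-05), and there its annotated length rests on a transcript of 5709 bases that is not protein coding. Snap25 was -0.70 with the trends removed (adjusted p = 0.0024) and 0.27 after rescaling to TPM (adjusted p = 0.0343), so no direction holds for it across scalings. The 15 interneuron markers, all listed in every library, had summed levels of 1886 to 2115 scaled FPKM among the exon 6-7 mice and of 1097 to 1358 among the exon 7 mice. That fall was carried by Cck, which went from 861 to 397 scaled FPKM between the wild types, and Sst, from 697 to 364. Of the 15 markers 7 were called lower and 5 higher (median -0.28), and the 5 higher were Gad1, Gad2, Erbb4, Kcnc1 and Kcnc2, with Gad2, an enzyme of GABA synthesis, going from 20.4 to 42.2 and the receptor gene Erbb4 from 2.54 to 13.0. The part of these markers in the members' differences was not tested.

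**Figure D4:**
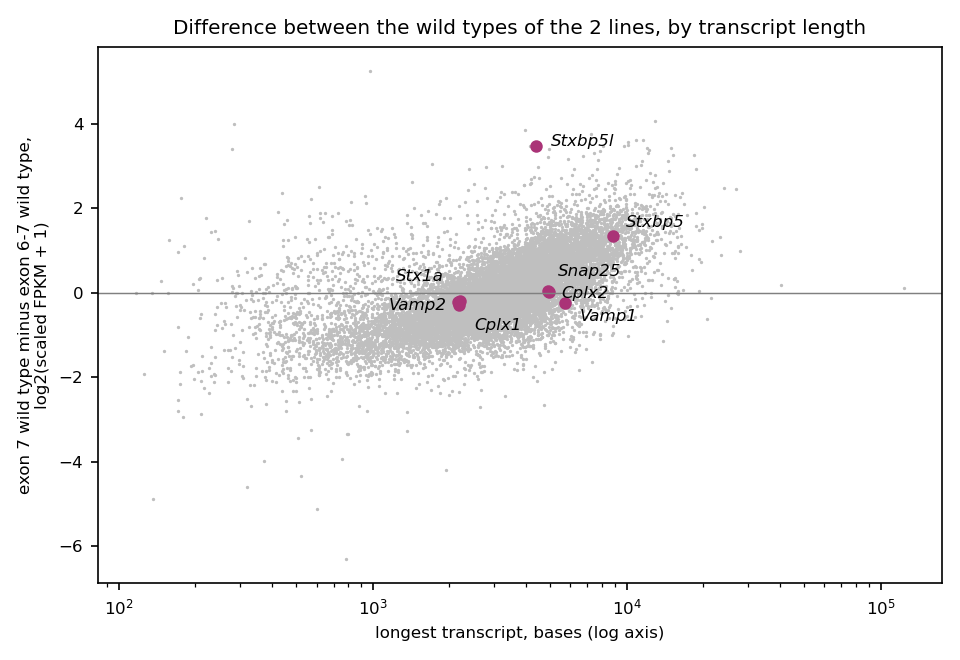
Difference between the exon 7 and exon 6-7 wild types on the log2(scaled FPKM + 1) scale (y axis) against the longest annotated transcript in bases (log x axis), for all genes tested with a length (grey) and the 8 genes (purple). The grey cloud climbs with length. Stxbp5 lies within it at 1.35, Stxbp5l lies above it at 3.47, and the other 6 lie between -0.28 and 0.04.

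Of the 72 tested list genes 26 were higher and 22 lower in the exon 7 wild types and 24 were not called, close to the background. The list of synaptotagmins, Doc2a, Doc2b and Rph3a had 8 higher and 3 lower of 16, and the disassembly factors and chaperones 4 and 4 of 9. The syntaxin binders had 6 and 4 of 18 and the Golgi, endosome and endoplasmic reticulum SNAREs 5 and 7 of 17. The other plasma membrane and vesicle SNAREs had 3 and 4 of 12. Syt1, the main fast calcium sensor of forebrain synapses, went from 190.2 to 448 scaled FPKM (log2 1.24, adjusted p = 3.43e-07 in limma), and Syt10 from 0.392 to 5.24 (2.16, adjusted p = 1.1e-06). Dnajc5, the chaperone of SNAP-25, went from 42.3 to 78.8 (0.88), and Nsf, the ATPase that takes SNARE bundles apart, from 244 to 355 (0.54). Vps33a (0.93), Stxbp4 (1.06) and Snap23 (1.07) were also higher. Use1 (-1.64, from 108 to 34.2), Stx8 (-1.10) and Stx4a (-1.13) were lower. With length and GC trends removed, Dnajc5 (0.05) and Stxbp4 (0.22) were no longer called.

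Ratios of paralogues within a library do not depend on the scaling between libraries, though they still hold any effect of length. Stxbp5l was 9.33 to 12.8% of Stxbp5 in the exon 6-7 wild types and 9.59 to 10.5% in the knockouts. The exon 7 range was 71.0 to 77.7% in wild types and 62.1 to 69.8% in knockouts, so the 3 exon 7 knockouts lay below the 3 wild types. A two-sided exact permutation test of that log2 difference (-0.13) gave p = 0.1, the smallest that 3 against 3 allow, and an adjusted p of 0.4 over the 6 tests of 3 ratios in both lines, so the parting was not called. As log2 ratios the 4 group means were -3.23 ± 0.242, -3.30 ± 0.0743, -0.45 ± 0.0726 and -0.58 ± 0.0925 (SD, n = 3 each). The tomosyn ratio thus separated the lines in every mouse and overlapped between genotypes in the exon 6-7 line.

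The synaptobrevin ratio was the steadiest, with Vamp1 at 6.48 to 8.53% of Vamp2 over all 12 mice. Its log2 group means were -3.66 ± 0.107 and -3.70 ± 0.0947 in the wild types and knockouts of the exon 6-7 line, and -3.69 ± 0.122 and -3.85 ± 0.092 in those of the exon 7 line. Genotypes overlapped in both lines, by a narrow margin in the exon 7 line (7.34% in KO994 against 7.33% in WT993). Cplx1 was 106 to 132% of Cplx2 in the exon 6-7 wild types, 98.2 to 139% in the knockouts, 86.1 to 111% in the exon 7 wild types and 74 to 86.3% in the knockouts. The set A mouse had the highest complexin ratio of each group, and the exon 7 genotypes overlapped only in that KO969 (86.3%) exceeded WT993 (86.1%).

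**Figure D5:**
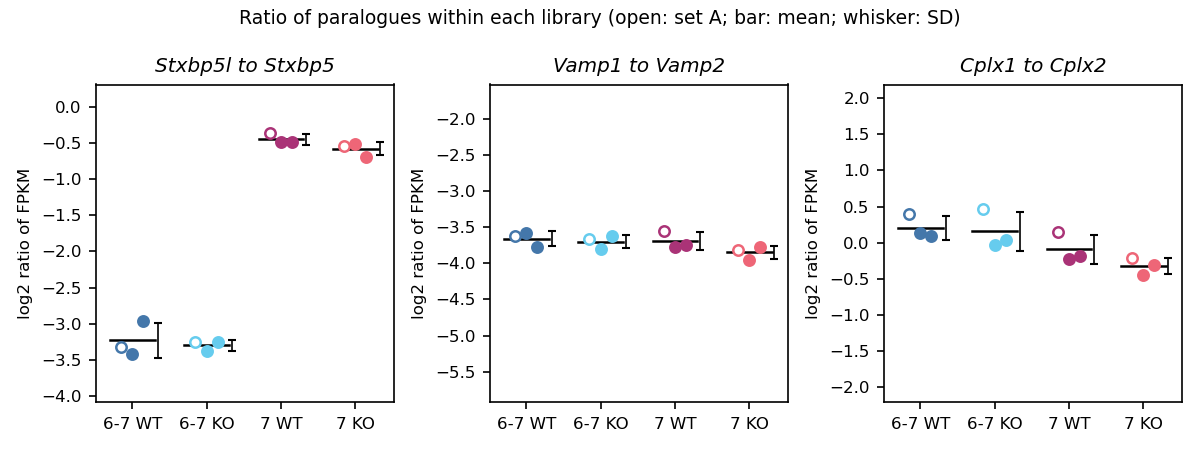
Log2 ratio of deposited FPKM values within each library for 3 pairs of paralogues, by group, with open points for set A libraries, bars for means and whiskers for SDs. Each panel has its own y range. The tomosyn ratio parts the lines (means -3.23 and -3.30 against -0.45 and -0.58), the synaptobrevin ratio stays between -3.95 and -3.55, and the open points of the complexin ratio are the highest of each group.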

How the data were processed

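Per the labels' protocols, TRIZOL was used to extract hippocampal RNA, from which TruSeq poly(A) libraries, size-selected on a gel, were made and sequenced. Tools and build named in the submitters' processing notes are GSNAP, Cufflinks, CASAVA and mm10, without their roles. The authors deposited 1 table of FPKM values per mouse, listing genes above 0. How reads were counted, and whether strand or multiple mapping played a part, is not stated.

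Unlisted genes were set to 0. Median-of-ratios scaling used 12511 genes that reached 1 FPKM everywhere, with factors from 0.918 to 1.07. The 14220 genes averaging 1 FPKM or more, leaving out 108 small RNAs, were tested with limma 3.58.1 (limma-trend) in R 4.3.3 on log2(scaled FPKM + 1), which understates changes of low genes. The model had 4 group means and 8 residual degrees of freedom (prior 3.88), and tests were two-sided with Benjamini-Hochberg adjustment over all genes and a threshold of 0.05. Exact permutation tests used 20 relabellings within a line (genes and ratios) or 400 over both. Annotation and coding sequences came from GENCODE M21 (GRCm38), with lengths for 98.9% of genes tested. Python 3.11.15 and matplotlib 3.10.9 made the plots.

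The members and lists were chosen with earlier results of these data known, as was library set A. Named were all 8 members, Shank2, per list the genes with the smallest p (2 per comparison), up to 6 past the threshold in each comparison, the 3 of highest level per list (not all are printed), and per member the 3 most correlated genes. Tests used 25 alternatives: pseudocounts of 0.1 and 5, a minimum mean of 5 FPKM or none, unscaled values, quantile normalization, TPM, each line alone, robust fitting, array weights, library set as a term or left out, length and GC trends removed, and each mouse left out. The rescaling to TPM used the FPKM sum of each library without mitochondrially encoded genes. The ratios had the alternatives of scaled FPKM + 1 and each mouse left out. Some genes that these rules select are counted in the lists but not reported singly here.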

Additional observations from a re-analysis of the deposited data

How the results depend on the processing

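Under 25 alternatives, 0 of 784 member values in the knockout comparisons were called (lowest adjusted p 0.393), and 62 had the other sign. Depth is unknown, and 3 mice a group leave the members' knockout effects with log2 intervals 0.34 (Stxbp5) to 1.1 (Stx1a) wide within a line. The cause of a changed sign or call was not tested. Mice were not paired, since each mouse number occurs once and the sample names give no litter. Library set was used as a term only among the alternatives.
With quantile normalization the exon 6-7 knockout values were 0.12 for Snap25, 0.06 for Vamp2 and -0.04 for Stxbp5l, the exon 7 value of Snap25 was 0.03, the difference was 0.03 for Vamp1 and 0.07 for Cplx1, the mean effect of Snap25 was 0.07, and the wild-type lines differed by 0.03 for Stx1a, 0.32 for Vamp2 and 0.35 for Cplx1. After rescaling to TPM, Snap25 was at 0.05 and Vamp2 at 0.00 in the exon 6-7 line, Snap25 at 0.02, Stxbp5 at 0.00 and Shank2 at 0.03 in the exon 7 line, the mean effect of Snap25 was 0.03, and the lines differed by 0.02 for Stx1a and Vamp2. With length and GC trends removed, the exon 6-7 values were -0.01 for Stxbp5 and -0.05 for Stxbp5l, the exon 7 values 0.01 for Snap25, Stxbp5 and Shank2, the differences -0.08 for Snap25, -0.02 for Stxbp5 and 0.04 for Cplx1, and the line values -0.70 for Snap25, 0.42 for Stx1a, 0.25 for Vamp2, 0.28 for Cplx1 and -0.26 for Cplx2. Without set A, Stxbp5l was at -0.03 in the exon 6-7 line, Shank2 at 0.03 in the exon 7 line, the difference of Snap25 at -0.01, the mean effect of Vamp2 at -0.01, and the line values of Snap25, Stx1a and Cplx2 at -0.01, 0.01 and -0.04. Array weights gave 0.01 for Shank2 in the exon 7 line and -0.01 for the difference of Snap25. FPKM as deposited gave line values of -0.11 for Snap25 and -0.14 for Cplx2, and the library set as a term gave 0.03 for Stx1a and -0.05 for Cplx2.
With each mouse left out in turn, the exon 6-7 values ran from -0.09 to 0.08 for Snap25, -0.06 to 0.12 for Stxbp5l and -0.24 to 0.06 for Cplx2. Exon 7 values ran from -0.06 to 0.01 for Snap25, -0.50 to 0.07 for Stx1a, -0.01 to 0.18 for Vamp2, -0.18 to 0.09 for Vamp1 and -0.11 to 0.11 for Shank2. The differences ran from -0.06 to 0.11 for Snap25, -0.21 to 0.36 for Stx1a, -0.19 to 0.08 for Vamp1 and -0.11 to 0.02 for Cplx1. Mean effects ran from -0.06 to 0.02 for Snap25, -0.04 to 0.06 for Vamp2, 0.00 to 0.04 for Stxbp5 and -0.04 to 0.10 for Cplx2, and line values from -0.02 to 0.14 for Snap25, -0.37 to 0.09 for Stx1a and -0.14 to 0.15 for Cplx2. Leaving out a set A mouse left set A in only 1 genotype of its line, so these ranges also hold the gap between the sets.
Genes called in the exon 6-7 line numbered 2, 5 without a filter and 1 to 6 with a mouse left out. In the exon 7 line there were 0, 1 with a pseudocount of 0.1, 1 without a filter, 2 without set A and 0 to 2 with a mouse left out. For the difference there was 1, with 2 under a pseudocount of 0.1, array weights or trends removed, 3 with the set as a term or without set A, and 1 to 3 with a mouse left out. For the mean there were 2, with 4 without a filter, 1 with TPM and 1 to 5 with a mouse left out. Of the 8 members 3 were called between lines, 5 with FPKM as deposited, array weights, the set as a term or without set A, 6 with quantile normalization and 3 to 5 with a mouse left out (5 without WT628). With scaled FPKM + 1 the tomosyn log2 ratio was -2.55 and -2.63 in the exon 6-7 wild types and knockouts.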
